A study of Mus musculus with 15 samples.

Results

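The 10 genes described here belong to 4 lymphocyte-activating cytokine systems and were followed through a time course of intratumoral poly(I:C). They are the cytokine genes Il12a, Il12b, Il15, Il18 and Il27, the receptor genes Il12rb1, Il12rb2, Il15ra and Il18r1, and Il18bp, which encodes a secreted inhibitor of IL-18. They were picked by name as members of the IL-12, IL-15, IL-18 and IL-27 systems, with earlier results of these data known. All 10 were found among the 32543 named genes of the deposited table, and 9 of them passed the filter on low counts that left 15494 genes for testing. Il12a did not pass.

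IL-12 is a heterodimer of the Il12a and Il12b products, made mainly by dendritic cells and macrophages, and it signals through the Il12rb1 and Il12rb2 chains on T and natural killer (NK) cells to promote interferon gamma. IL-15 is presented to those cells on the surface of other cells by IL-15 receptor alpha, the Il15ra product, and sustains NK cells and CD8 T cells. IL-18 is made as an inactive precursor that caspase-1 cleaves in inflammasomes, acts together with IL-12 on lymphocytes that carry the Il18r1 and Il18rap chains, and is bound and neutralised by the Il18bp product, while the Il27 product pairs with that of Ebi3 to form IL-27, a cytokine of activated myeloid cells.

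RNA was sequenced from 15 subcutaneous WEHI-164 tumors, a mouse fibrosarcoma line, grown in wild-type female BALB/c mice, with 3 tumors harvested on each of days 0, 1, 3, 5 and 7. Day 0 tumors were untreated, and the others received poly(I:C), a synthetic double-stranded RNA sensed by Toll-like receptor 3, at 1 µg in 25 µL into the tumor each day for a planned 6 doses. A legend in the supplement of the study names a larger amount, so the dose is uncertain. Vehicle-injected tumors, which legends of the study mention for the later days, are not analysed here, so harvest day, tumor age and number of injections cannot be told apart, and the labels give no age of the mice. The samples are whole tumors of 1 transplanted line with the host cells inside them, so a lower level from fewer cells of a type cannot be told apart from less RNA per cell. The labels number the tumors of a day without naming the animals, and the study counts its replicates as mice.

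Library totals ran from 23.7 to 31.9 mega-counts (estimated counts). Levels are given as CPM, estimated counts scaled to library size, with the sizes corrected by the trimmed mean of M-values (TMM), and replicate order within a day is that of the labels. The fibroblast and sarcoma markers Col1a1, Col1a2, Vim, Fn1, Pdgfrb and S100a4 summed to 17820 CPM in day 3 replicate 1 and to between 7257 and 10971 CPM in the other 14 tumors. Day 3 replicate 1 stood apart from the other libraries, with a score of 144 on a first principal component on which the other 14 tumors lay between -77.0 and 45.1, and with 5 skeletal muscle markers summing to 2158 CPM against at most 137 CPM elsewhere. Day 3 fold changes and calls are therefore also given without it.

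Of the 9 tested members, 6 had their highest day mean on day 3, while those of Il12b and Il12rb1 were highest on day 5 and that of Il15 was level on days 1 and 3. The Il15 mean on day 1 was 11.5 CPM, and 7.28 CPM without day 1 replicate 3. On day 3, 8 (all but Il12b) were higher in each day 3 tumor than in any day 0 tumor, led by Il18bp at 5.62-fold, Il18r1 at 4.86-fold and Il12rb2 at 4.46-fold in the fitted means. Across all tested genes, 19.4% were separated in this direction. By day 7 the same 8 genes lay below the day 3 tumors without overlap, a pattern held by 18.4% of all genes, and both comparisons share the day 3 tumors. With the quasi-likelihood test of edgeR and Benjamini-Hochberg correction no gene of the 15494, members included, was called at an adjusted p under 0.05 in any comparison (0%).

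**Figure D1:**
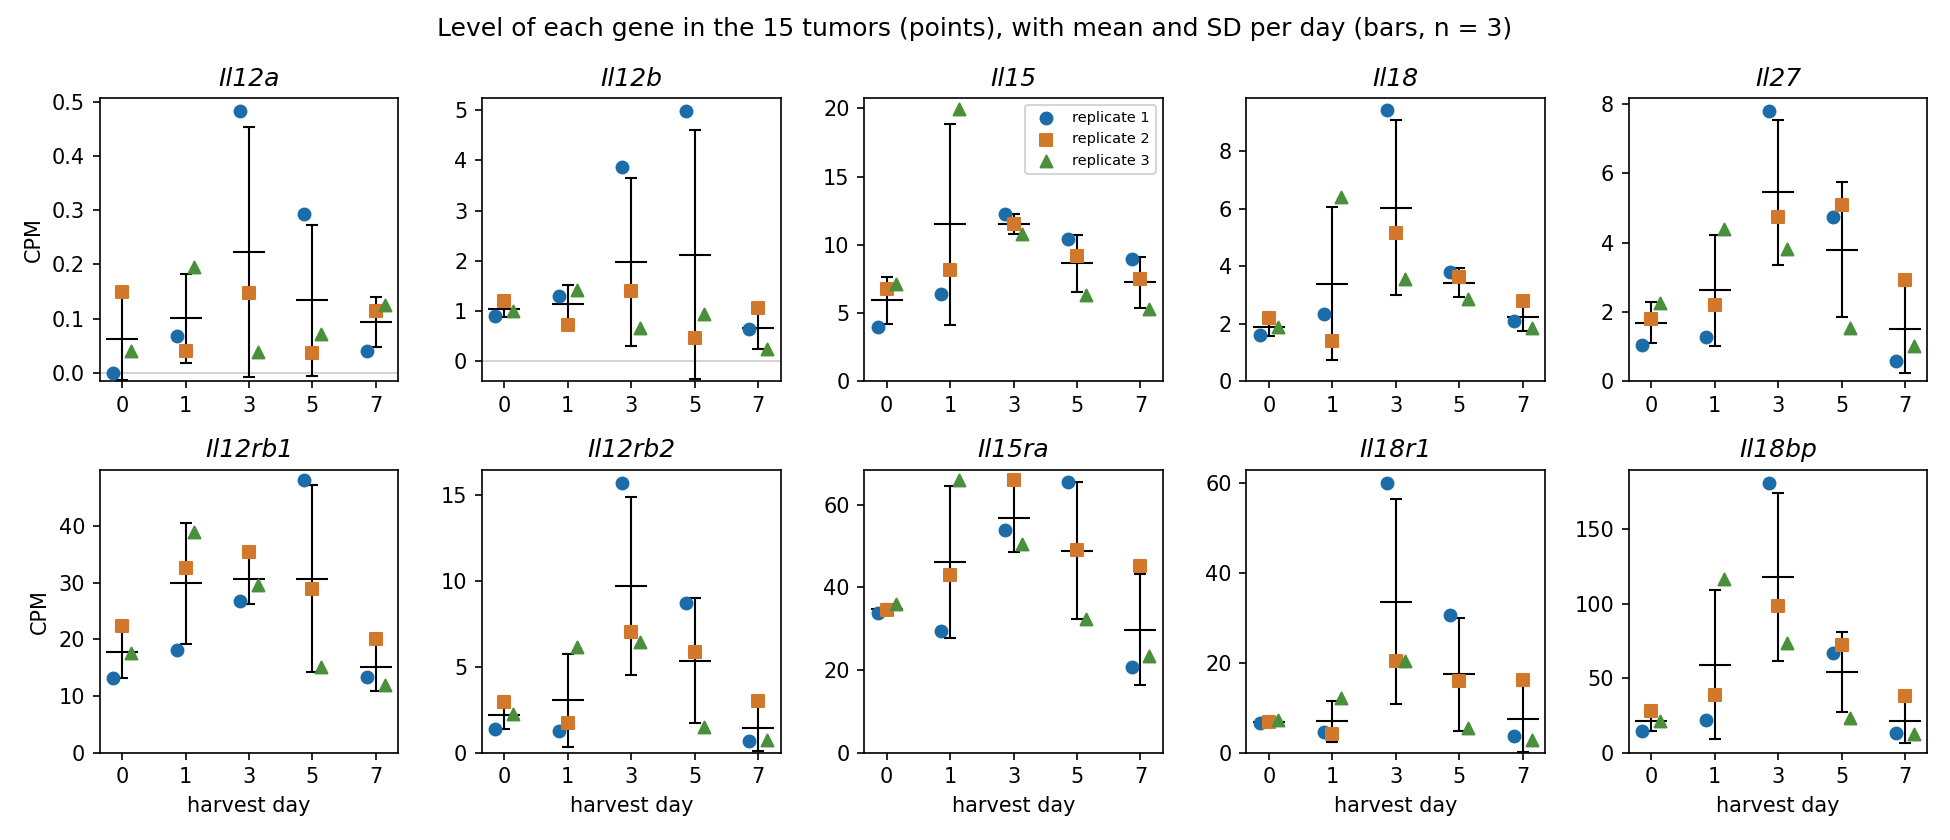
Level of the 10 genes in CPM (y axis, linear, one scale per panel) against harvest day (x axis), with 1 point per tumor, marker shape for the replicate number, a horizontal line for the mean and bars for the SD of 3 tumors. The day means of 7 of the 10 genes are highest on day 3, and day 3 replicate 1 is the top point for Il12a, Il18, Il27, Il12rb2, Il18r1 and Il18bp, while day 1 replicate 3 is the top point of its day for all 10 genes.

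The genes lie on 8 mouse chromosomes in the GRCm38 build, here with the GENCODE M21 spans of the whole gene, and all are annotated as protein coding. The cytokine genes are Il12a at chr3:68690644-68698547 (plus strand), Il12b at chr11:44400063-44414033 (plus), Il15 at chr8:82331632-82403222 (minus), Il18 at chr9:50554827-50581840 (plus) and Il27 at chr7:126589010-126594941 (minus). The receptor genes are Il12rb1 at chr8:70808449-70821424 (plus), Il12rb2 at chr6:67291318-67376188 (minus), Il15ra at chr2:11705290-11734317 (plus) and Il18r1 at chr1:40465552-40500854 (plus), and Il18bp lies at chr7:102014885-102018690 (minus). Exons of 3 members share bases with a gene on the opposite strand, Il12rb2 with Serbp1 over 1519 bases, Il27 with Apobr over 103 and Il18bp with Numa1 over 80. Strandedness of the library is not given in the sources used here, so reads from these stretches cannot be assigned between the partners. Over the 15 tumors Serbp1 ran from 303 to 673 CPM, Apobr from 55.9 to 100.4 and Numa1 from 193 to 255, each above the member it overlaps. Pearson's r of log2 CPM was 0.92 for Apobr with Il27, -0.74 for Serbp1 with Il12rb2 and -0.03 for Numa1 with Il18bp. The part of shared reads in the members' counts was not tested.

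The sequences before the transcription start are shown for the 3 genes with the highest day 3 folds, which moved together over the tumors, as the stretch in which response elements of the interferon pathways are usually sought. Each runs 5′ to 3′ along the gene for the 250 bases before a RefSeq start (GRCm38.p6), with matches to TTCNNNGAA, the core of the gamma-activated sequence, in capitals. The Il12rb2 stretch is chr6:67376189-67376438 (minus), that of Il18r1 is chr1:40465756-40466005 (plus), before the third of its 3 RefSeq starts, and that of Il18bp is chr7:102018233-102018482 (minus). The Il12rb2 stretch directly precedes the GENCODE span of its gene. Those of Il18r1 and Il18bp lie inside the spans, downstream of the annotated 5′ end, so they precede internal starts.
Il12rb2: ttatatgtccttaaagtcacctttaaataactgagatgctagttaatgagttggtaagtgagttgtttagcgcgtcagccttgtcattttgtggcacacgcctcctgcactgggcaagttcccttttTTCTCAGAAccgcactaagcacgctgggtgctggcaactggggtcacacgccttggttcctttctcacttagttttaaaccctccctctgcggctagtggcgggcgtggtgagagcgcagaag
Il18r1: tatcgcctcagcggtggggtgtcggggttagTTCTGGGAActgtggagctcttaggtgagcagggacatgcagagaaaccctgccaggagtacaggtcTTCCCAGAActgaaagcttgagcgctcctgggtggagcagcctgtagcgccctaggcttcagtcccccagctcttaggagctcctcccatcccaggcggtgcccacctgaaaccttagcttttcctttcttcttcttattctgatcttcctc
Il18bp: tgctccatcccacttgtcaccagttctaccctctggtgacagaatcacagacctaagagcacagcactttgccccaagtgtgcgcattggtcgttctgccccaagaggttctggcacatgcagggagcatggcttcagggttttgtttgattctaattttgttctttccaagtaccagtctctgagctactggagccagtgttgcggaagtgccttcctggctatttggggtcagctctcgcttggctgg
TTCNNNGAA, which reads the same on both strands, occurred at positions -123 to -115 of Il12rb2 and at -219 to -211 and -152 to -144 of Il18r1, counted from the start, and 8.30% of the 32851 windows of 300 bases in the same table held it. The core of the interferon-stimulated response element (GAAA, any 2 bases, GAAA), searched on both strands, occurred in none of the 11 windows of the 7 members that have one, against 3.44% of all windows. For TTCNNNGAA, the windows of the other 2 Il18r1 starts and those of Il12a, Il12b, Il18, Il15ra and Il18bp held no match. A match is a description of letters and not a measured site.

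Among the cytokines, the IL-12 subunits were the scarcest. Il12a, the p35 subunit, had 0, 4 and 1 counts on day 0, 2, 1 and 6 on day 1, 12, 4 and 1 on day 3, 8, 1 and 2 on day 5 and 1, 3 and 3 on day 7. Its highest level was 0.483 CPM in day 3 replicate 1, and the limit that a count of 0 allows, 3 counts, corresponded to between 0.0972 and 0.125 CPM in these libraries, for counting error only. At this depth no change in Il12a between days was detectable. Il12b, the p40 subunit that IL-12 shares with IL-23, measured 0.910, 1.19 and 1.00 CPM on day 0, 1.30, 0.718 and 1.43 on day 1, 3.86, 1.40 and 0.661 on day 3, 4.98, 0.462 and 0.934 on day 5, and 0.651, 1.06 and 0.251 on day 7. The 2 high tumors, day 3 replicate 1 and day 5 replicate 1, carried its day means, and the days overlapped throughout. Its day 3 log2 fold change was 0.93 ± 0.82 (SE, edgeR adjusted p = 0.412), and 0.00 without day 3 replicate 1, and its day 5 value of 1.03 ± 0.82 became -0.56 without day 5 replicate 1.

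Il15 was the cytokine gene with the tightest day 3 group. It measured 3.94, 6.77 and 7.08 CPM on day 0, 6.38, 8.17 and 20.0 on day 1, 12.2, 11.5 and 10.8 on day 3, 10.4, 9.18 and 6.32 on day 5 and 8.95, 7.49 and 5.27 on day 7. Every day 3 tumor lay above every day 0 tumor, while on day 1 replicate 1 fell within the day 0 range and replicate 3 was the highest of all 15 tumors. The log2 fold change against day 0 was 0.96 ± 0.39 on day 1 and 0.96 ± 0.39 on day 3 (SE; edgeR adjusted p = 1.00 and 0.139). Without day 1 replicate 3 the day 1 value was 0.30, and without day 3 replicate 1 the day 3 value was 0.91. Day 7 lay below day 3 without overlap, at -0.67 ± 0.39 (edgeR adjusted p = 0.212).

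Il18 measured 1.58, 2.20 and 1.88 CPM on day 0, 2.34, 1.40 and 6.42 on day 1, 9.41, 5.15 and 3.54 on day 3, 3.81, 3.63 and 2.84 on day 5, and 2.07, 2.78 and 1.84 on day 7. It was the only member that lay above the day 0 tumors without overlap on both day 3 and day 5, and its day 7 values returned to overlap with day 0. On day 3 the log2 fold change was 1.67 ± 0.49 (SE, edgeR adjusted p = 0.115), and it was 1.21 without day 3 replicate 1. DESeq2, a second count model, called this rise at an adjusted p of 0.0210 with all tumors and not without day 3 replicate 1 (0.266). The day 5 value was 0.86 ± 0.49 and the change from day 3 to day 7 was -1.43 ± 0.49 (edgeR adjusted p = 0.859 and 0.0874), or -0.95 without day 3 replicate 1.

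Il27, which encodes the p28 subunit of IL-27, measured 1.04, 1.79 and 2.24 CPM on day 0, 1.27, 2.19 and 4.41 on day 1, 7.80, 4.74 and 3.81 on day 3, 4.76, 5.09 and 1.54 on day 5, and 0.569, 2.93 and 1.00 on day 7. The day 3 tumors lay above day 0 without overlap, and on day 5 replicates 1 and 2 stayed near the day 3 level while replicate 3 did not. Its day 3 log2 fold change was 1.69 ± 0.65 (SE, edgeR adjusted p = 0.129; DESeq2 adjusted p = 0.0540), and 1.35 without day 3 replicate 1.

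The receptor genes had day 3 fold changes of unlike size, and the differences between genes were not tested. Il12rb2, the inducible signaling chain of the IL-12 receptor, measured 1.35, 2.94 and 2.24 CPM on day 0, 1.24, 1.71 and 6.16 on day 1, 15.7, 7.02 and 6.42 on day 3, 8.71, 5.87 and 1.47 on day 5, and 0.651, 3.00 and 0.710 on day 7. Day 3 lay above both day 0 and day 1 without overlap. The log2 fold change against day 0 was 2.16 ± 0.80 (SE, edgeR adjusted p = 0.123), 1.63 without day 3 replicate 1, and DESeq2 gave an adjusted p of 0.0399 with all tumors and 0.344 without that tumor. Il12rb1, the chain shared with the IL-23 receptor, measured 13.2, 22.3 and 17.6 CPM on day 0, 18.2, 32.5 and 39.0 on day 1, 26.8, 35.5 and 29.6 on day 3, 48.1, 28.9 and 15.2 on day 5, and 13.3, 20.0 and 12.0 on day 7. It was one of the members with a smaller change, at 0.79 ± 0.38 on day 3 (edgeR adjusted p = 0.180) and 0.88 without day 3 replicate 1, since day 3 replicate 1 was the lowest of its day.

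Il18r1, the ligand-binding chain of the IL-18 receptor, was scattered on day 1 and high on day 3. It measured 6.67, 6.81 and 7.24 CPM on day 0, 4.48, 4.19 and 12.2 on day 1, 60.0, 20.3 and 20.5 on day 3, 30.7, 16.0 and 5.57 on day 5, and 3.62, 16.0 and 2.76 on day 7. The day 3 tumors lay above those of day 0 and day 1 without overlap, and day 7 replicate 2 stood at 16.0 CPM, over 4 times each of the other day 7 tumors. The log2 fold change was 0.01 ± 0.74 for day 1 and 2.28 ± 0.76 for day 3 (SE; edgeR adjusted p = 1.00 and 0.115), and 1.56 on day 3 without replicate 1. DESeq2 called the day 3 difference with all tumors (adjusted p = 0.0232) and not without replicate 1 (0.298).

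Il15ra measured 33.8, 34.6 and 35.9 CPM on day 0, 29.5, 43.0 and 66.0 on day 1, 53.8, 65.9 and 50.6 on day 3, 65.4, 49.1 and 32.3 on day 5, and 20.6, 45.3 and 23.5 on day 7. The 3 untreated tumors lay close together, and all day 3 tumors lay above them. Its fold was the lowest of the 9 on day 3, 0.71 ± 0.34 on the log2 scale (SE, edgeR adjusted p = 0.175), and 0.75 without day 3 replicate 1, so that tumor did not raise it.

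Il18bp had the largest day 3 fold of the 9 members. It measured 14.2, 27.8 and 21.1 CPM on day 0, 22.0, 39.0 and 116 on day 1, 182, 98.8 and 74.0 on day 3, 66.8, 72.6 and 22.9 on day 5, and 13.1, 37.8 and 12.5 on day 7. Each day 3 tumor exceeded the highest day 0 tumor, on day 1 replicates 2 and 3 did, and on day 7 replicates 1 and 3 lay below the day 0 range and replicate 2 above it. The log2 fold change against day 0 was 1.49 ± 0.65 for day 1, 2.49 ± 0.67 for day 3 and 1.36 ± 0.65 for day 5 (SE; edgeR adjusted p = 1.00, 0.115 and 0.859). Without day 1 replicate 3 the day 1 value was 0.54, and without day 3 replicate 1 the day 3 value was 2.04. DESeq2 gave adjusted p = 0.00765 for day 3 with all tumors and 0.209 without day 3 replicate 1, and limma with voom and sample weights, which gave that tumor a weight of 0.0719, gave 0.0292.

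**Figure D2:**
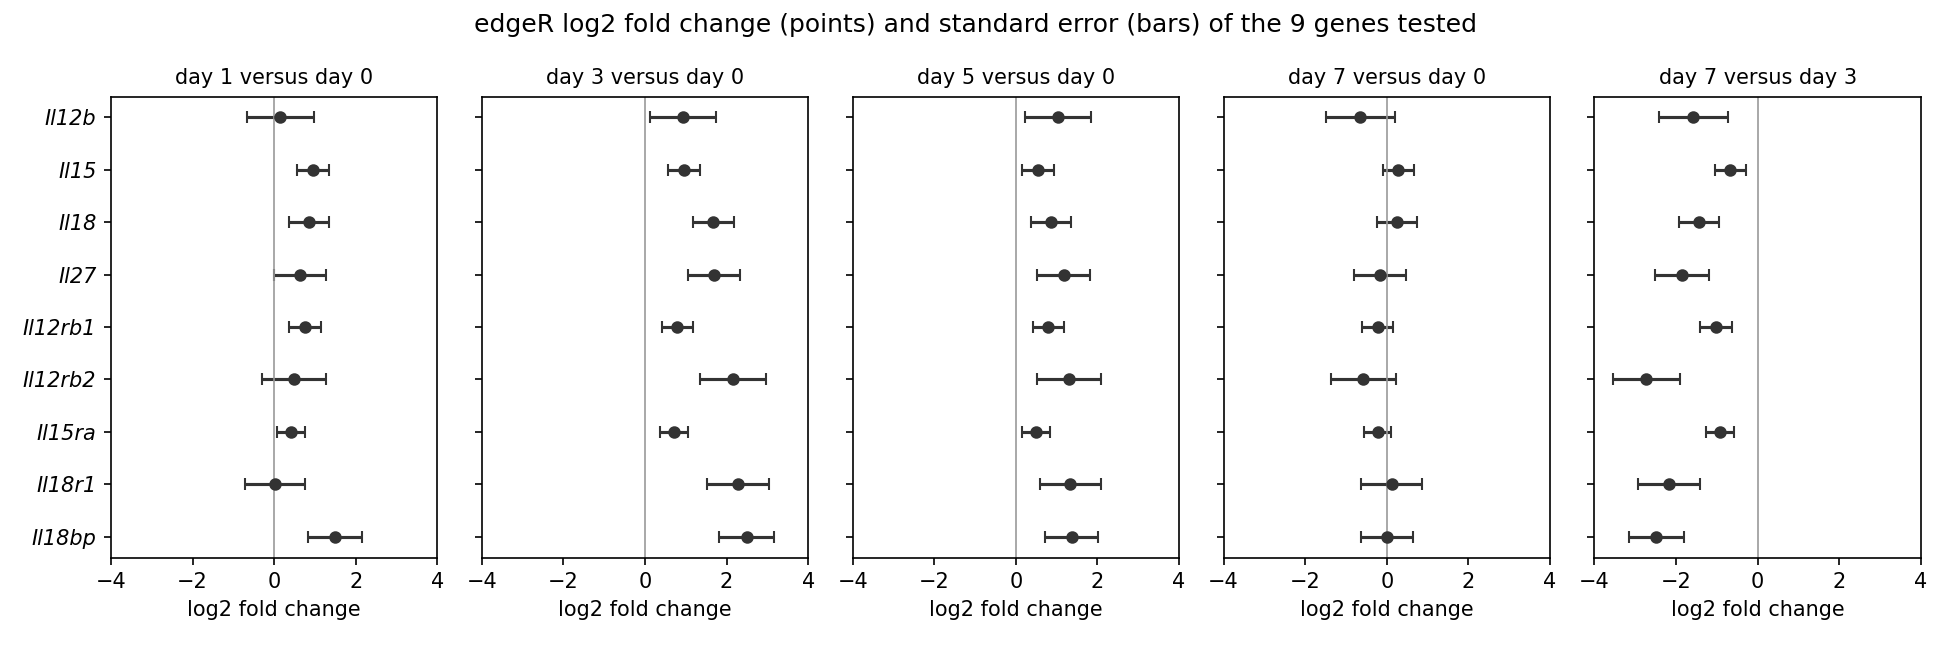
edgeR log2 fold change (x axis, points) with its standard error (bars) for the 9 tested genes (y axis) in 5 comparisons of harvest days, each fitted from all 15 tumors. On day 3 against day 0 the values run from 0.71 for Il15ra to 2.49 for Il18bp, and on day 7 against day 3 all 9 lie below 0.

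Counted over the members, all 9 had a positive log2 fold change against day 0 at each of days 1, 3 and 5, and 4 did at day 7, where 49.9%, 48.0%, 50.3% and 44.4% of all tested genes did. The median over the 9 was 0.64, 1.67, 1.03 and -0.17 on these days, beside medians between -0.02 and 0.00 over all genes. Members that lay above day 0 without overlap numbered 0 for day 1 (5.76% of all genes), 8 for day 3, 1 for day 5 (6.89%) and 0 for day 7 (5.03%). The day 1 signs of Il12b, Il18, Il12rb2 and Il18r1 rested on 1 tumor: without day 1 replicate 3 their values were -0.03, -0.01, -0.56 and -0.67.

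At an unadjusted edgeR p under 0.05, 2 members passed on day 1 (Il15 and Il18bp; 3.16% of all genes), 6 on day 3 (Il15, Il18, Il27, Il12rb2, Il18r1 and Il18bp; 30.0%), 0 on day 5 (4.80%) and 0 on day 7 (2.07%). DESeq2 called 0 members on day 1 (0.258% of all genes), 4 on day 3 (Il18, Il12rb2, Il18r1 and Il18bp; 12.9%), 0 on day 5 (0.0710%) and 0 on day 7 (0.0323%). Without day 3 replicate 1 it called 0 members on day 3 (0.553% of all genes), and edgeR passed 2 unadjusted, Il18 and Il18bp (13.1%), with a median over the 9 members of 1.21. Without day 1 replicate 3 DESeq2 called 6 members on day 3, when it called 17.3% of all genes. The weighted limma fit called the same 4 genes on day 3 (7.65% of all genes), 5 on day 5 (those 4 and Il27; 15.9%), and 0 on days 1 and 7 (0% each). The calls of the members on day 3 therefore depended on the tool, and those of DESeq2 also on which tumors were included. The weighted limma fit called its 4 with day 3 replicate 1 at a weight of 0.0719.

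Between day 1 and day 3 the members changed by unlike amounts, in part through day 1 replicate 3. Of the 9, 8 had a positive log2 fold change on day 3 against day 1, as did 46.7% of all genes. Il12rb2 and Il18r1 were higher in all day 3 tumors than in all day 1 tumors, as were 7.53% of all genes, with log2 fold changes of 1.67 ± 0.78 and 2.27 ± 0.76 (SE; edgeR adjusted p = 0.274 and 0.264), and 1.13 and 1.54 without day 3 replicate 1. The mean level of Il15 was 11.5 ± 7.38 CPM on day 1 and 11.5 ± 0.729 on day 3, and that of Il12rb1 29.9 ± 10.7 and 30.6 ± 4.41 (SD, n = 3), so these 2 genes differed between the days by less than their spread. With all tumors the log2 fold changes of day 3 against day 1 were -0.00092 for Il15, 0.036 for Il12rb1 and 0.30 for Il15ra. Without day 1 replicate 3 they were 0.66, 0.28 and 0.65. At an unadjusted p under 0.05, 1 member (Il18r1) passed edgeR's test (18.4% of all genes), DESeq2 called 0 (0.181%) and the weighted limma fit 0 (0%). Without day 1 replicate 3, DESeq2 called 4 members, Il18, Il12rb2, Il18r1 and Il18bp, and 12.9% of all genes.

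From day 3 to day 7 every tested member had a negative log2 fold change, where 51.6% of all genes had a positive one. The values ran from -2.73 ± 0.82 for Il12rb2 and -2.48 ± 0.67 for Il18bp to -0.67 ± 0.39 for Il15 (SE), with edgeR adjusted p between 0.0832 and 0.212 and a median over the 9 of -1.58. All but Il12b and Il15, 7 members, passed at an unadjusted p under 0.05 (35.5% of all genes), and DESeq2 called the same 7 (21.0%). The weighted limma fit called 1, Il18bp (3.41%), and edgeR without day 3 replicate 3 called 3 members, Il18, Il12rb2 and Il18bp (13.6%). Without day 3 replicate 1 DESeq2 called 0 (0.605%), with no adjusted p assigned to 7 of the 9, edgeR passed 4 unadjusted (8.48% as lower), the median was -1.10 and the edgeR values for Il12rb2 and Il18bp were -2.19 and -2.02. In the joint test of the 4 treated days against day 0, 5 members passed at an unadjusted edgeR p under 0.05 (16.2% of all genes), DESeq2 called 3 (7.59%) and the weighted limma fit 7 (24.9%), and without day 3 replicate 1 edgeR passed 1 (7.22%).

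Levels of different genes were compared per kilobase of annotated exon. On day 0 the order was Il15ra at 7.82 ± 0.246 CPM per kb, Il18bp at 6.95 ± 2.24, Il12rb1 at 4.31 ± 1.11, Il15 at 2.62 ± 0.765, Il18 at 1.83 ± 0.297, Il27 at 1.66 ± 0.591, Il18r1 at 1.43 ± 0.0618, Il12rb2 at 0.574 ± 0.210, Il12b at 0.526 ± 0.0729 and Il12a at 0.0370 ± 0.0453 (SD, n = 3). Neighbours from Il15ra down to Il18r1 overlapped within 1 SD, as did Il12rb2 and Il12b, and the steps from Il18r1 to Il12rb2 and from Il12b to Il12a were larger than the spread. On day 3 Il18bp stood alone at the top with 39.0 ± 18.6 CPM per kb, ahead of Il15ra at 12.8 ± 1.82 and Il12rb1 at 7.47 ± 1.07. Il18r1 followed at 6.97 ± 4.75, Il18 at 5.85 ± 2.95, Il27 at 5.34 ± 2.05 and Il15 at 5.09 ± 0.322, overlapping with one another and, except for Il15, with Il12rb1 within 1 SD. Il12rb2 at 2.56 ± 1.37, Il12b at 1.00 ± 0.852 and Il12a at 0.131 ± 0.136 closed the order.

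The inhibitor of IL-18 was followed against its ligand within each tumor. The ratio of Il18bp to Il18 counts was 8.98, 12.7 and 11.2 on day 0, 9.41, 28.0 and 18.1 on day 1, 19.3, 19.2 and 20.9 on day 3, 17.6, 20.0 and 8.09 on day 5, and 6.33, 13.6 and 6.80 on day 7. All 3 day 3 tumors lay above all 3 day 0 tumors, and day 3 replicate 1, which had the highest levels of both genes, had a ratio like those of its 2 replicates. The Il15ra to Il15 ratio showed no such step, with 8.56, 5.11 and 5.07 on day 0 and 4.40, 5.73 and 4.69 on day 3. For the IL-12 receptor chains, Il12rb2 per Il12rb1 count was 0.102, 0.132 and 0.127 on day 0 and 0.585, 0.198 and 0.217 on day 3, so the rarer chain stood relatively higher on day 3 in all 3 tumors. These ratios use counts without gene length and were not tested.

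**Figure D3:**
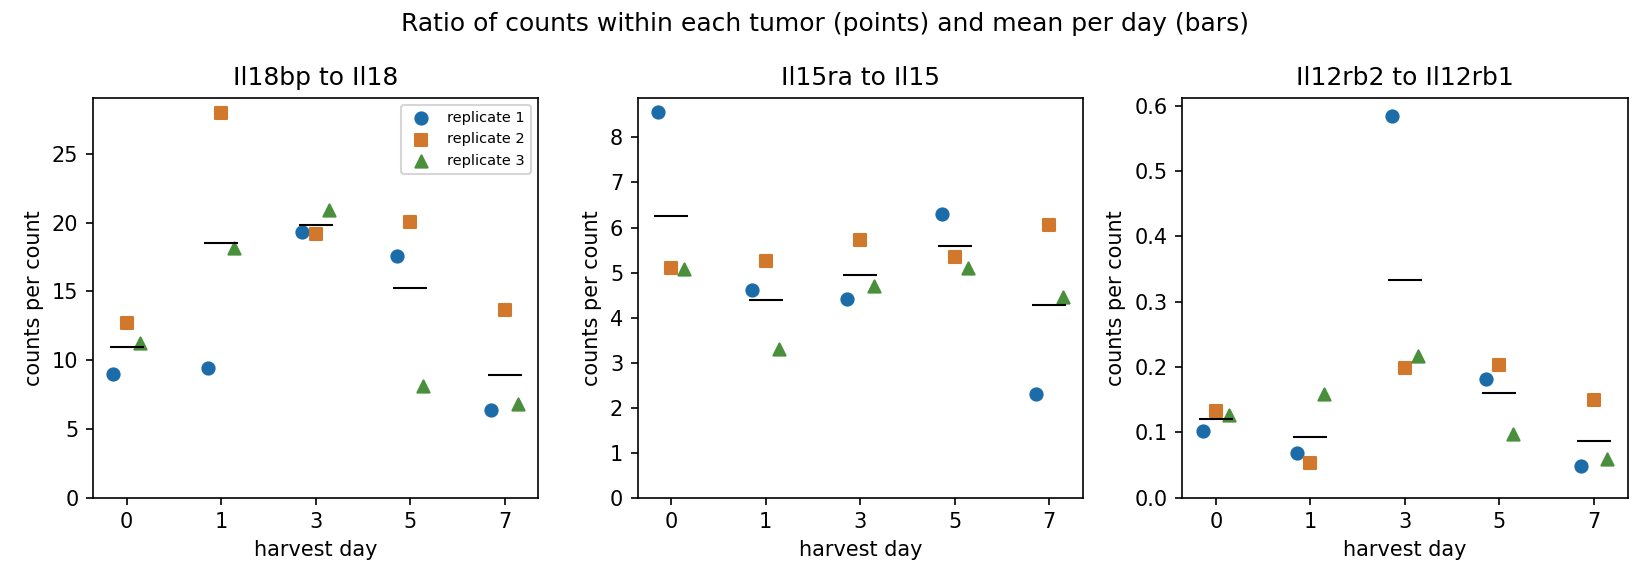
Ratio of counts of 2 genes within each tumor (y axis, linear) against harvest day (x axis) for Il18bp to Il18, Il15ra to Il15 and Il12rb2 to Il12rb1, with 1 point per tumor and a horizontal line for the mean of 3 tumors. The 3 day 3 points for Il18bp to Il18 sit between 19.2 and 20.9, above the day 0 points at 8.98 to 12.7.

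The members act with partner subunits outside the list, of which Il23a and Il23r were too low to test. Ebi3, the partner of Il27, measured 3.51, 4.65 and 4.20 CPM on day 0 and 20.2, 8.38 and 7.43 on day 3. The receptor for IL-27 pairs Il27ra, at 3.81, 3.24 and 5.04 CPM on day 0 and 26.4, 8.42 and 8.21 on day 3, with Il6st, at 240, 219 and 227 CPM on day 0 and 310, 220 and 227 on day 3. Ebi3 and Il27ra were thus higher in all day 3 tumors than in any day 0 tumor, as were 19.4% of all genes, while Il6st overlapped. The signaling chains of the IL-15 receptor behaved like Ebi3: Il2rb measured 17.9, 21.6 and 22.8 CPM on day 0 and 129, 77.1 and 57.6 on day 3, and Il2rg 51.0, 65.5 and 70.2 on day 0 and 268, 145 and 119 on day 3. The log2 fold changes on day 3 were 2.08 ± 0.69 for Il2rb, 1.83 ± 0.63 for Il27ra, 1.54 ± 0.51 for Ebi3, 1.51 ± 0.51 for Il2rg and 0.14 ± 0.13 for Il6st (SE; edgeR adjusted p from 0.115 to 0.438). Without day 3 replicate 1 they were 1.70, 1.05, 0.94, 1.09 and -0.03 in the same order. DESeq2 called 4 of the 6 tested partners as higher, against 9.02% of all genes, and 0 without that tumor (0.280%).

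Il18rap, the accessory chain of the IL-18 receptor, went the other way from Il18r1 on day 3. It measured 232, 229 and 245 CPM on day 0, 229, 237 and 191 on day 1, 107, 194 and 206 on day 3, 183, 198 and 208 on day 5 and 219, 198 and 202 on day 7. All tumors of days 3, 5 and 7 lay below all day 0 tumors, so the lower level was not particular to day 3. The share of all genes that lay below day 0 without overlap is not given here. Day 3 replicate 1 was lowest of the 15. The day 3 log2 fold change was -0.48 ± 0.19 (SE, edgeR adjusted p = 0.134), or -0.23 without that tumor. Its unadjusted edgeR p was 0.0253, and 11.7% of all genes passed under 0.05 as lower. Per kilobase of exon Il18rap stood at 34.9 ± 1.24 CPM in the untreated tumors against 1.43 ± 0.0618 for Il18r1 (SD, n = 3), and Il18r1 per Il18rap count was 0.0287 to 0.0297 on day 0 and 0.0992 to 0.560 on day 3.

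Lists of signaling, inflammasome and lymphocyte response genes were read on the same contrast. Of 14 genes of the Jak, Stat and MyD88 pathways, 11 had a positive day 3 log2 fold change, as did 48.0% of all genes. Of the 14, 7 passed at an unadjusted edgeR p under 0.05 as higher and 0 as lower (18.3% and 11.7% of all genes). DESeq2 called 3 (9.02% of all genes as higher). Stat4, which carries the IL-12 signal, and Stat5b, which carries that of IL-15, had the highest values, 1.83 ± 0.70 and 1.76 ± 0.56, and Jak2 the lowest, -0.20 ± 0.13 (SE; edgeR adjusted p = 0.129, 0.115 and 0.281). Without day 3 replicate 1 these were 1.01, 0.96 and -0.28, and 0 genes of the list passed unadjusted (13.1% of all genes). All 9 inflammasome genes were positive (48.0% of all genes), 6 passed unadjusted as higher (18.3%) and DESeq2 called 5 as higher (9.02%). Pycard, the inflammasome adaptor, and Aim2, a sensor of cytosolic DNA, led with 1.54 ± 0.47 and 1.45 ± 0.38, and Casp4 had the lowest value at 0.40 ± 0.22. These were 0.98, 0.88 and 0.47 without that tumor, when 4 genes of the list passed unadjusted (6.52% of all genes as higher).

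The 10 lymphocyte response genes are effector and transcription factor genes that IL-12, IL-15 or IL-18 are known to act on. All 10 were positive on day 3 (48.0% of all genes), and 8 passed unadjusted as higher (18.3%). DESeq2 called 1 of the 10 as higher, near the 9.02% it called over all genes. Ifng, the cytokine that IL-12 and IL-18 are known for inducing, stood at 2.14 ± 0.541 CPM in untreated tumors, 6.38 ± 1.67 at day 3 and 1.52 ± 1.42 at day 7 (SD, n = 3), with a day 3 log2 fold change of 1.58 ± 0.72 (SE, edgeR adjusted p = 0.163), or 1.67 without day 3 replicate 1. Tbx21, the T-bet transcription factor, and Fasl, a death ligand of cytotoxic cells, had the highest values, 2.22 ± 0.94 and 2.15 ± 0.75, and Bcl2, a survival factor, the lowest, 0.47 ± 0.20. Without that tumor these were 1.42, 1.78 and 0.38, and 2 genes of the list passed unadjusted (6.52% of all genes as higher). DESeq2 then called 0 genes of the 3 lists (0.553% of all genes). The medians of the 3 lists on day 3 were 0.48, 1.11 and 1.55, beside 1.67 over the 9 members and -0.02 over all genes, and 0.30, 0.72 and 1.38 without that tumor. From day 3 to day 7, 8 of 14, 7 of 9 and 10 of 10 genes passed unadjusted as lower, where 22.6% of all genes did. Without that tumor 2, 4 and 4 did, and 8.48% of all genes.

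How each member ran over the 15 tumors was described by Pearson's r of log2 CPM with an index of 10 interferon-stimulated genes and with one of 10 T and NK cell markers, points that share their library and its depth. The interferon index was already up on day 1, with 6.74, 6.42 and 8.27 against 5.42, 5.78 and 5.61 on day 0, and the T and NK cell index was not in 2 of 3 tumors, with 1.32, 1.60 and 3.29 against 1.62, 2.30 and 2.21 (mean log2 CPM). On day 3 the T and NK cell index stood at 5.19, 3.57 and 3.55. Il18r1 and Il12rb2 ran closest to the T and NK cell index, both with r = 0.98, values that 0.355% and 0.361% of all genes reached, and had r = 0.36 and 0.53 with the interferon index. Il15 was the one member with a higher r to the interferon index, 0.79 (1.22% of all genes), than to the T and NK cell index, 0.68 (24.0%), but the order turned with Spearman's rho (0.66 and 0.75) and with values centred on their day mean (0.66 and 0.70). Il18bp had r = 0.72 and 0.92 with the interferon and the T and NK cell index, Il18 0.67 and 0.85, Il15ra 0.63 and 0.86, Il12rb1 0.64 and 0.75, Il27 0.57 and 0.93 and Il12b 0.19 and 0.70. The shares of all genes reaching them were 2.04% and 6.03% for Il18bp, 3.09% and 12.3% for Il18 and 3.92% and 11% for Il15ra. They were 3.78% and 19.3% for Il12rb1, 6.36% and 4.31% for Il27 and 35.9% and 22.4% for Il12b. By share, Il18bp, Il18, Il15ra and Il12rb1 ranked higher on the interferon index, and Il27 and Il12b lower. Il15ra turned to 7.04% and 4.46% without day 3 replicate 1. Without day 3 replicate 1, over 14 tumors, the values for Il15 were 0.79 and 0.66 and those for Il18r1 0.36 and 0.97.

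**Figure D4:**
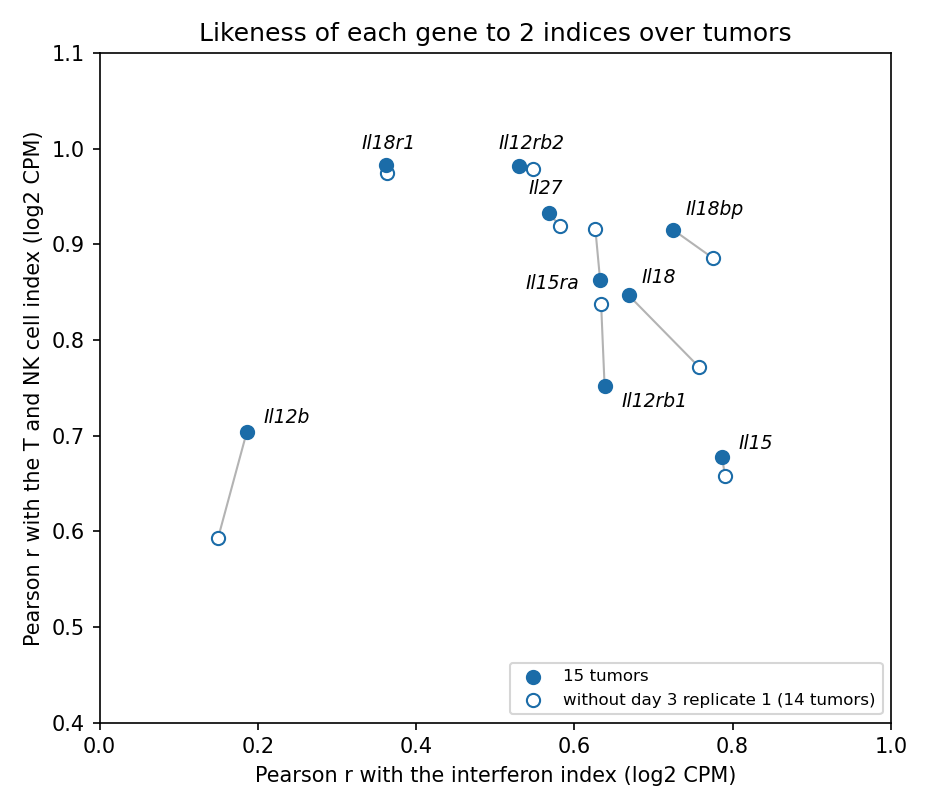
Pearson's r of each tested gene with the T and NK cell index (y axis) against its r with the interferon index (x axis), over 15 tumors (filled) and over 14 without day 3 replicate 1 (open), joined by a line for each gene. Il18r1 and Il12rb2 sit at the top with 0.98 on the y axis, and Il15 lies farthest to the right at 0.79.

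The members' own patterns differed in the company they kept. Among all tested genes, the 3 with the highest r over 15 tumors were Lax1, Ikzf3 and Cd2 for Il18r1 (0.99 each), Satb1, Ccdc88b and Mgst1 for Il12rb2 (0.98 to 0.99), and Trafd1, Ggta1 and Sp110 for Il18bp (0.99 each). For Il15ra they were Cd274, which encodes PD-L1, Ifng and C5ar1 (0.97 to 0.98), for Il12rb1 Ifi47, Gm43302 and Tvp23a (0.97 to 0.98), and for Il27 Inpp5j, Tbc1d9 and Sema4d (0.97 each). Il18 ran with Spic, Lrpap1 and Alox5ap (0.95 to 0.97), and Il15 with Ms4a4d, Gm38050 and Phf11b (0.93 to 0.95). The 3 for Il12b included Ccr7 and Flt3, genes of dendritic cells, with Papss2 (0.92 to 0.93). Between the members themselves r ran from 0.42 for Il12b with Il15 to 0.97 for Il27 with Il12rb2.

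Markers of immune cells moved with these levels. The 10 T and NK cell markers summed to between 36.8 and 60.5 CPM on day 0, 33.3 and 127 on day 1, 144 and 432 on day 3, 47.9 and 220 on day 5 and 16.0 and 90.9 on day 7. The 8 macrophage and monocyte markers summed to between 1646 and 2175 CPM on day 0 and 3201 and 7628 on day 3, the 8 dendritic cell markers to between 44.3 and 67.6 and 87.1 and 266, and the 4 B cell markers to between 1.28 and 2.44 and 4.63 and 30.3. Day 3 replicate 1 had the highest sum of each of these lists, also of the 4 adipocyte markers (248 CPM against at most 57.4 elsewhere). At day 3, 10 of 10 T and NK cell, 7 of 8 macrophage and monocyte and 3 of 8 dendritic cell markers passed at an unadjusted edgeR p under 0.05 as higher (18.3% of all genes), and 3, 4 and 1 did without day 3 replicate 1 (6.52%). The 4 keratinocyte markers summed to 25.2 CPM in day 3 replicate 3 and to at most 3.54 CPM elsewhere, with Krt1 at 3 counts or fewer in every tumor. The part of these markers in the members' levels was not tested.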

How the data were processed

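RNA of 15 WEHI-164 tumors, 3 for each of 5 harvest days, was analysed from a table of estimated counts per gene. Single-end reads of poly(A) RNA were made, per the labels and the study's methods, and the authors estimated transcript abundance with kallisto, summed transcripts to genes with tximport (GRCm38) and deposited whole-number estimated counts per gene and tumor. Estimated counts carry uncertainty in how reads shared by transcripts were divided. One entry bearing a date in place of a gene name, at most 0.0268% of the counts of a tumor, was left out, and 31401 of the other 32543 names matched a mouse symbol.

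Genes over 0.366 CPM in at least 3 tumors were kept, the filter of the study's methods, and fitted with edgeR 4.0.16 in R 4.3.3 (TMM factors, quasi-likelihood test, harvest day as the only term, 2-sided) on all 15 tumors, so that the 5 days share 1 estimate of the spread. P-values were adjusted by Benjamini and Hochberg over 15494 genes and called under 0.05. Standard errors were taken as the log2 fold change divided by the square root of F. Correlations used log2 CPM with a prior count of 2. Gene models came from GENCODE M21 and sequences before the start from RefSeq (GRCm38.p6), where 7 of the 10 members matched. No window was found for Il15, Il27 and Il12rb1.

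The members and the gene lists were chosen with earlier results of these data known. Beside the members and 8 partner genes, the text names Ifng and, from each pathway list, the 2 genes with the highest and the 1 with the lowest day 3 log2 fold change among those tested, and for each member the 3 genes with the highest r. Genes that overlap members and the markers at 3 counts or fewer were named by what they are. Alternatives were DESeq2 1.42.0, limma 3.58.1 with voom and sample weights, RLE factors, no filter, a robust spread, a replicate block and leaving out each tumor. DESeq2 with 1 tumor left out (the first of day 3, the third of day 1 or the first of day 5) was chosen after seeing the data. The scripts were tested on simulated counts. Same-numbered tumors of different days did not deviate together as a group (9 of 30 pairs with a correlation over 0.1, median -0.096 against 0.021 for other pairs). This gave no sign of a pairing by number. With values centred on 3 tumors a day, it cannot exclude one.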

Additional observations from a re-analysis of the deposited data

How the results depend on the processing

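In the edgeR fit 0 members were called in every comparison, and RLE factors, no filter on low counts, a robust spread and the replicate block gave 0 as well. DESeq2 called 4 members on day 3 against day 0 (12.9% of all genes), 7 on day 7 against day 3 (21.0%) and 3 in the joint test (7.59%). It gave the same numbers of members without day 5 replicate 1, a setting whose shares of all genes are not given here. With the third tumor of day 1 left out it gave 6, 7 and 5 (17.3% of all genes on day 3). With the first of day 3 left out it gave 0 in each, with 0.553% of all genes on day 3 and 0.605% on day 7 against day 3. In that fit 7 members had no adjusted p on day 7 against day 3. Limma with voom and sample weights called 4 members on day 3, 5 on day 5, 1 on day 7 against day 3 and 7 in the joint test. It called 7.65%, 15.9%, 3.41% and 24.9% of all genes there. DESeq2 without day 1 replicate 3 called 4 on day 3 against day 1 (12.9% of all genes). Leaving out each tumor in edgeR gave 0 to 3 members on day 7 against day 3, and 0 in the other comparisons. The 3 came without day 3 replicate 3, when 13.6% of all genes were called. The replicate block, which the numbers do not support as a pairing, left 6 members at an unadjusted p under 0.05 on day 3 and moved the joint test from 5 to 1. The shares of all genes under the block are not given here.

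Against 0 genes in edgeR, DESeq2 called 40 of all genes for day 1, 2003 for day 3, 11 for day 5, 5 for day 7, 28 for day 3 against day 1, 3260 on day 7 against day 3 and 1176 in the joint test. Without day 3 replicate 1 these were 71, 85, 18, 16, 3, 93 and 181. The weighted limma fit called 1186 on day 3, 2458 on day 5, 529 on day 7 against day 3 and 3864 in the joint test. edgeR without day 3 replicate 3 called 2104 genes on day 7 against day 3 and 2 on day 3, and without day 1 replicate 3 called 58 and 61.

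Log2 fold changes kept their sign in 1275 of 1296 alternatives. On day 1 the weighted limma fit and DESeq2 without day 1 replicate 3 gave -0.18 and -0.034 for Il12b, -0.046 and -0.012 for Il18, -0.38 and -0.56 for Il12rb2, and -0.59 and -0.68 for Il18r1. With each tumor left out, the edgeR values ran from -0.027 to 0.40 for Il12b, -0.010 to 1.21 for Il18, -0.56 to 0.86 for Il12rb2 and -0.67 to 0.27 for Il18r1. Il12b on day 3 was -0.11 in the weighted limma fit and -0.0030 in DESeq2 without day 3 replicate 1, and on day 5 it was -0.64 in the weighted limma fit, -0.56 in DESeq2 without day 5 replicate 1, and -0.56 to 1.51 with each tumor left out of edgeR. Il6st on day 3 was -0.0018 in the weighted limma fit, -0.029 in DESeq2 without day 3 replicate 1 and -0.027 to 0.24 with each tumor left out. The r of Il12b with the interferon index was -0.090 with values centred on their day mean. Leaving out 1 tumor moved 18 of the 50 day means of the members by over 1.5 times, 4 of them of Il12a. The others were those of Il15, Il18, Il27, Il12rb2, Il18r1 and Il18bp on day 1 (without replicate 3), Il12b and Il18r1 on day 3 (without replicate 1) and on day 5 (without replicate 1), and Il27, Il12rb2, Il18r1 and Il18bp on day 7 (without replicate 2), among them Il12b on day 5 from 2.12 to 0.698 CPM and Il18r1 on day 3 from 33.6 to 20.4 CPM. The cause of these changes was not tested. With 3 tumors a day and Il12a at most at 12 counts, small changes and the Il12a level are limited by replicate number and depth.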
